A study of Mus musculus with 24 samples.

Results

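The myosin light chain, actin and alpha-actinin genes described here are Myl2, Myl3, Myl4, Myl7, Mylk3, Actc1, Acta1, Acta2, Actn1 and Actn2, 10 of the 56923 genes counted in each library. They were chosen by name, and each symbol matched 1 Ensembl gene in the count tables. RNA was measured in cardiomyocyte (CM) nuclei of C57BL/6N mice of either sex at postnatal days 1, 7 and 14 (P1, P7 and P14). The nuclei came from snap-frozen ventricles and were sorted on PCM1, which marks the nuclear surface of CMs. Control mice were XMLC2- Casp2fl/fl, with both Casp2 alleles floxed and no Cre. Casp2-depleted mice were XMLC2+ Casp2fl/fl, with the same floxed alleles and a Cre recombinase driven in CMs by a promoter of the Xenopus myosin light chain 2 gene. All control mice lacked the transgene, so Cre itself and the loss of Casp2 cannot be told apart. There were 4 libraries for each genotype and day, 24 in all, each from a pool of 15 hearts at P1, 6 at P7 or 2 at P14. The replicates are thus pools of animals.

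The sarcomere is the contractile unit of heart muscle. Its thick filament is built of myosin heavy chains, each carrying an essential and a regulatory light chain, and its thin filament is built of actin. Alpha-actinin crosslinks the actin filaments in the Z-disc. Ventricular muscle uses the regulatory light chain MYL2 and the essential light chain MYL3, while MYL7 and MYL4 are their atrial counterparts and are also made in the embryonic heart. MYLK3 is the cardiac kinase that phosphorylates MYL2. Cardiac actin (Actc1) is the main sarcomeric actin of the heart, skeletal actin (Acta1) is made beside it around birth in rodents, and smooth muscle actin (Acta2) marks smooth muscle and the early embryonic heart. ACTN2 is the sarcomeric alpha-actinin and ACTN1 is the non-muscle form.

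The 3 striated and smooth muscle actins are close paralogs, so the first question was whether reads could be told apart between them. Their coding sequences have 1131 bases each. Actc1 and Acta1 are identical at 86.3% of these positions, Acta1 and Acta2 at 85.4%, and Actc1 and Acta2 at 82.6%. The first 30 coding bases are shown for the 3 genes, with capitals at the 10 positions where they are not all the same, because they make this difference visible.
Actc1: atgtgTgaCgaCgaGgaGaCcacCgcTTtG
Acta1: atgtgCgaCgaAgaCgaGaCcacCgcTCtT
Acta2: atgtgTgaAgaGgaAgaCaGcacAgcCCtG
The longest stretch shared without a mismatch was 29 bases between the whole transcripts of Actc1 and Acta1, and 9 to 11 bases within the last 500 bases of any 2 of the 3 transcripts, where 3′ tags fall. For the other pairs, the longest shared stretch was 38 bases for Actn1 and Actn2, 29 bases for Myl3 and Myl4 and 16 bases for Myl2 and Myl7. The reads had a length of 100 bases before trimming, so an untrimmed read matching 1 of these transcripts exactly cannot match its paralog exactly.

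The genes also differ in what lies before their start. In the 250 bases before the RefSeq start, 4 of the 10 genes hold a CArG box, the element bound by serum response factor, against 1.47% of the 32851 windows of all genes. These are Actc1, Acta1, Myl3 and Myl7. Their windows are printed 5′ to 3′ on the strand of the gene, at their position in GRCm39, with the CArG box in capitals.
Actc1, chr2:113883357-113883606, minus strand: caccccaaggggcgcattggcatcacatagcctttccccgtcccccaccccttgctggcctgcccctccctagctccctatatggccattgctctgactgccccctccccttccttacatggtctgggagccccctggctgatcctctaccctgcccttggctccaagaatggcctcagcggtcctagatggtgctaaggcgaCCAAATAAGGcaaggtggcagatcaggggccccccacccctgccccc
Acta1, chr8:124621515-124621764, minus strand: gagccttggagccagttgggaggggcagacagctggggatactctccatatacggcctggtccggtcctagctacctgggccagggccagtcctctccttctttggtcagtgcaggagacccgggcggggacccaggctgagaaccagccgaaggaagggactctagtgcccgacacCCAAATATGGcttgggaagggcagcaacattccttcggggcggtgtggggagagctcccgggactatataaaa
Myl3, chr9:110592496-110592745, plus strand: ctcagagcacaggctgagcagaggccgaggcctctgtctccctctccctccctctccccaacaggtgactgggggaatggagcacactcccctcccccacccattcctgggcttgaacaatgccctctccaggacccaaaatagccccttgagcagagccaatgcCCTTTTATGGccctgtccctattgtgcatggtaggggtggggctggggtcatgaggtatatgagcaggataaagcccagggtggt
Myl7, chr11:5848783-5849032, minus strand: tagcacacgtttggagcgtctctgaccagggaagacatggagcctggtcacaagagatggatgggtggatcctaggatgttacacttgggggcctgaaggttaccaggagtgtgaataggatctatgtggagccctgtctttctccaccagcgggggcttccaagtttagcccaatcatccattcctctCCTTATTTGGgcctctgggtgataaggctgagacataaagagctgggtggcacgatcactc
The box ends 38 bases before the start in Actc1, 52 in Myl7, 64 in Acta1 and 76 in Myl3. No window of the 10 genes holds a MEF2 site, which is present in 2.92% of all windows. The 2 Myl2 windows end at chr5:122230786 and chr5:122231251, while the gene as counted starts at chr5:122238848. The bases directly before that start were not scanned, so the motifs of Myl2 there are not known from these windows. On either strand, CATTCC was found in 5 genes (12.6% of all windows), GATAA in 5 (22.6%) and TATAAA in 2 (12.4%). The motifs overlap nowhere with the CArG boxes. As the values below show, Actc1 and Myl3 were read in most libraries and Acta1 and Myl7 in few, although all 4 share the box. A match of letters is a description and says nothing of a factor bound there.

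The libraries differed in ways that bear on every value below. The study dropped 3 of the 24 for their quality, namely replicate 1 of the P1 controls, replicate 3 of the P14 controls and replicate 1 of P14 Casp2-depleted nuclei. Reads assigned to genes numbered 891817 to 2924097 in the other 21 (median 1452114). Casp2 itself could not serve as a check of the labels, since it had 9 reads in all over the P7 controls, 8 over the P7 Casp2-depleted libraries and none at P1 or P14. The share of uniquely placed reads that lay on no gene was 36.7 to 54.7% in P7 controls and 63.7 to 75.2% in P14 controls, so these groups did not overlap. It was 34.3 to 64.3% at P7 and 72.2 to 76.1% at P14 in Casp2-depleted nuclei. At P1 it was 60.7 to 73.9% in controls and 36.8 to 70.6% in Casp2-depleted nuclei. Ventricular CM markers had reads in all groups, 8 of 8 genes at P1 and P7 and 6 of 8 at P14, where the transcription factor genes Irx4 and Hey2 were at 0 in both genotypes. Their summed level, in CPM, which scales the reads of a gene to the total on all genes, had a median of 46748 at P1, 68569 at P7 and 26230 at P14 in controls, and of 31412, 52938 and 17873 in Casp2-depleted nuclei. In bulk RNA, fewer nuclei of a type and less RNA per nucleus cannot be told apart.

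Levels of the 10 genes are given as CPM scaled by the trimmed mean of M values (TMM). A gene was called changed at an adjusted p below 0.05 and a log2 fold change beyond 1 in either direction, in a quasi-likelihood fit over all 20368 genes tested. All 10 genes passed the filter on low counts, which asked for 10 reads in total and a read in 3 libraries. Per kilobase of gene span, the median level over the 21 libraries was 104 CPM for Myl2, 11.4 for Actc1, 4.19 for Mylk3, 4.18 for Actn2 and 3.80 for Myl3. It was 0.734 for Acta2, 0.685 for Actn1 and 0.150 for Myl4, and 0 for Acta1 and Myl7, which had no read in most libraries.

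**Figure D1:**
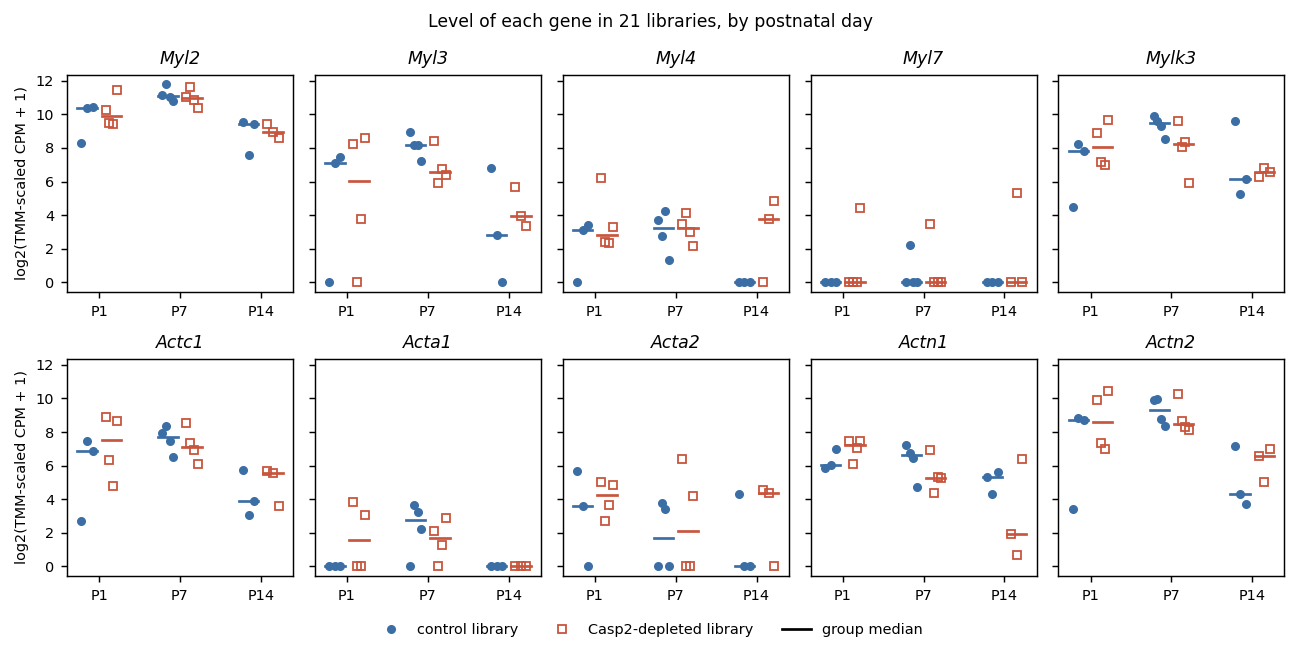
Level of each of the 10 genes in the 21 libraries as log2(TMM-scaled CPM + 1), by postnatal day. Filled circles are control libraries, open squares Casp2-depleted libraries and bars group medians. By group median, Myl2 was highest at P7 and lowest at P14 in both genotypes, while Myl7 and Acta1 lay at 0 in most libraries.

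Myl2 (chr5:122238848-122251545, plus strand) encodes the ventricular regulatory light chain, and it fell between P7 and P14 in both genotypes. In controls its level was 311, 1353 and 1362 CPM in the 3 P1 libraries. It reached 2296, 3528, 2098 and 1816 CPM in the 4 P7 libraries. In the 3 P14 libraries it was 751, 189.9 and 693 CPM. Every P7 control library was thus above every P1 and P14 control library, while P1 and P14 overlapped. In Casp2-depleted nuclei the P1 libraries had 1246, 719.7, 697 and 2758 CPM. The P7 libraries had 2101, 3224, 1857 and 1315 CPM. The P14 libraries had 681, 495 and 379.5 CPM. All P14 libraries lay below all P1 and P7 libraries of this genotype, and P1 overlapped P7. By group medians the order was P7 control (2197 CPM), P7 Casp2-depleted (1979), P1 control (1353), P1 Casp2-depleted (983), P14 control (693) and P14 Casp2-depleted (495), and each group overlapped its neighbours in this order.

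From P7 to P14, Myl2 fell by 2.16 on the log2 scale in controls (SE 0.43, adjusted p = 0.000144), which is 4.47-fold (95% interval 2.50 to 7.98). In Casp2-depleted nuclei it fell by 2.03 (SE 0.425, adjusted p = 0.000232), or 4.10-fold (2.30 to 7.30). From P1 to P14 it fell by 1.39 in Casp2-depleted nuclei (SE 0.41, adjusted p = 0.0445), and in controls the log2 fold change was -0.89 (SE 0.43, adjusted p = 0.428). The P7 against P1 log2 values, 1.27 in controls (SE 0.41, adjusted p = 0.626) and 0.65 in Casp2-depleted nuclei (SE 0.37, adjusted p = 0.781), did not pass. The P14 control left out by the study had 4430 reads on Myl2, or 4167 CPM without TMM scaling, and over all 24 libraries the P14 against P7 value in controls was -0.69 (adjusted p = 0.671). Without P14 control replicate 2 it was -1.59 (adjusted p = 0.0628). With the no-gene share fitted as a covariate, the P14 against P7 values were -0.88 in controls (adjusted p = 0.375) and -0.74 in Casp2-depleted nuclei (adjusted p = 0.412), and the P14 against P1 value in Casp2-depleted nuclei was -0.16. The P14 against P1 call was close to the threshold. It was lost without P1 Casp2-depleted replicate 1 (adjusted p = 0.137) or 4 (-0.73, 0.344), without P14 Casp2-depleted replicate 3 (0.257) or 4 (-1.05, 0.347), and without most single libraries of the other groups (0.0530 to 0.109).

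Myl3 (chr9:110570929-110599396, plus strand), the ventricular essential light chain, was lower in every P14 library than in every P7 library of the same genotype, with a wider spread than Myl2. Controls had 0, 134 and 176 CPM at P1. At P7 they had 491, 291, 293 and 151 CPM, and at P14 113, 5.98 and 0 CPM. The P1 controls overlapped both later days. Casp2-depleted libraries had 303, 0, 12.8 and 380.1 CPM at P1. They had 347, 60.1, 108 and 83.4 CPM at P7, and 50.6, 14.5 and 9.15 CPM at P14, and the P1 libraries spanned the range of both later days. By group median Myl3 was highest at P7 in controls (292 CPM) and at P1 in Casp2-depleted nuclei (158 CPM, against 95.9 at P7). The log2 fold change from P7 to P14 was -2.95 in controls (SE 1.98, adjusted p = 0.443) and -2.60 in Casp2-depleted nuclei (SE 1.95, adjusted p = 0.519), and neither passed. In the fit without robust estimation of the prior spread, added after the data were seen, Myl3 was called in controls (adjusted p = 0.0295). Reads of Pth1r, which overlaps Myl3 on the opposite strand, came to 1513 over 24 libraries against 9827 for Myl3, and without a stated strand setting the 2 cannot be told apart where they overlap.

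The atrial light chain genes were near the limit of detection. Myl4 (chr11:104440903-104486603, plus strand), the atrial and fetal essential light chain, had 23 reads over the 3 P1 controls, 61 over the 4 P7 controls and none over the 3 P14 controls. Against a limit of 3 reads for a count of 0, summed over the group, the P14 controls were at least 13.4-fold lower than the P7 controls and at least 7.18-fold lower than the P1 controls. Such bounds allow for counting error in the group without a read alone. They take the reads of the other group as exact and leave out the spread between libraries. In Casp2-depleted nuclei it had 149, 6, 6 and 18 reads in the P1 libraries. It had 22, 21, 10 and 5 reads at P7 and 0, 20 and 43 at P14. No Myl4 comparison passed the edgeR test. Cdc27 and other genes overlap Myl4 on the opposite strand, and Cdc27 had 4088 reads over the 24 libraries.

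Myl7 (chr11:5845449-5848792, minus strand), the atrial regulatory light chain, had reads in 4 of 21 libraries. These were 42 reads in P1 Casp2-depleted replicate 4, 5 in P7 control replicate 2, 22 in P7 Casp2-depleted replicate 1 and 62 in P14 Casp2-depleted replicate 3. As a share of the reads on Myl2 and Myl7, Myl7 reached 7.29% in the last of these (95% Wilson interval 5.73 to 9.24). In the libraries without a Myl7 read the limit for the share ranged from 0.0681 to 1.18%. The summed level of the 8 atrial markers, which include Myl4 and Myl7, was 16.8 to 242 CPM in P14 controls and 131 to 316 CPM in P14 Casp2-depleted nuclei. At P14, 4 of the 8 had reads in controls and 6 in Casp2-depleted nuclei, with Sln and Stard10 at 0 in both. P14 Casp2-depleted replicate 3, which held all Myl7 reads of its group, had the highest atrial sum of the 21 libraries (316 CPM). Its 62 Myl7 and 20 Myl4 reads are part of that sum, so this rank is not independent of them. P1 control replicate 2, with 0 reads on either gene, had a sum of 282 CPM. The part of atrial nuclei in these values was not tested.

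Mylk3 (chr8:86049783-86112974, minus strand), whose product phosphorylates MYL2, was the only member besides Myl2 whose P7 controls all lay above the P1 controls. Its control levels were 21.01, 303 and 228 CPM at P1. They were 967, 791, 641 and 367 CPM at P7, and 773, 37.4 and 68.9 CPM at P14. Replicate 1 of the P14 controls thus lay within the P7 range, while replicates 2 and 4 lay below all P7 libraries and within the P1 range. In Casp2-depleted nuclei the levels were 477, 143, 124 and 818 CPM at P1. At P7 they were 793, 265, 328 and 58.2 CPM, and at P14 they were 77.3, 112 and 92.1 CPM. No Mylk3 comparison was called. Its log2 fold change from P1 to P7 was 1.91 in controls (SE 0.83, adjusted p = 0.626). From P7 to P14 it was -1.94 in Casp2-depleted nuclei (SE 0.83, adjusted p = 0.262), and this value was called without P7 Casp2-depleted replicate 4 (-2.30, adjusted p = 0.0161) or P14 control replicate 1 (-1.94, 0.0213). In controls the same step was -1.24 (SE 0.81, adjusted p = 0.407) with all 3 P14 libraries and -3.70 (adjusted p = 0.000109) without P14 control replicate 1, so that 1 library decided it.

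Actc1 (chr2:113876266-113884043, minus strand), the cardiac actin of the thin filament, fell most clearly among the actins. The P1 controls had 5.40, 173 and 115 CPM. The P7 controls had 249, 332, 179 and 89.0 CPM, and the P14 controls had 51.4, 7.48 and 13.6 CPM. All P7 controls were above all P14 controls, and the P1 controls spanned the P14 range. In Casp2-depleted nuclei the levels were 483, 79.7, 27.0 and 410.0 CPM at P1. They were 364, 164, 119 and 68.0 CPM at P7, and 49.9, 45.9 and 11.1 CPM at P14. Here too P7 and P14 did not overlap, and the lowest P1 library lay among the P14 libraries.

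In controls Actc1 fell by 3.13 on the log2 scale from P7 to P14 (SE 0.78, adjusted p = 0.00598), an 8.75-fold difference (95% interval 3.05 to 25.1). In Casp2-depleted nuclei the same step gave -2.33 (SE 0.74, adjusted p = 0.0584), short of the threshold. It passed without P7 Casp2-depleted replicate 4 (-2.60, adjusted p = 0.0318), and without each of 4 libraries of other groups. In this genotype, from P1 to P14 Actc1 fell by 2.81 (SE 0.76, adjusted p = 0.0168). The control value from P1 to P14 was -2.01 (SE 0.76, adjusted p = 0.381). The P14 against P7 call in controls was lost without P7 control replicate 2 (-2.76, adjusted p = 0.0665), P14 control replicate 2 (-2.59, 0.108) or P14 control replicate 4 (-2.85, 0.0722). The P14 against P1 call in Casp2-depleted nuclei was lost without P1 Casp2-depleted replicate 1 (-2.09, adjusted p = 0.260) or 4 (-2.39, 0.140), and without P14 Casp2-depleted replicate 3 (-2.89, 0.0856) or 4 (-2.21, 0.266). With the no-gene share fitted as a covariate, the P14 against P7 values were -0.76 in controls (adjusted p = 0.866) and 0.48 in Casp2-depleted nuclei. Gjd2os, on the opposite strand of the Actc1 locus, had 1554 reads over the 24 libraries.

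Acta1 (chr8:124618501-124623661, minus strand) and Acta2 (chr19:34217737-34232990, minus strand) were close to 0. Acta1 had no read in any P1 control and in any of the 6 P14 libraries of the fit. It had 0, 16, 13 and 5 reads in the P7 controls, 27, 0, 0 and 15 at P1 in Casp2-depleted nuclei, and 7, 0, 2 and 9 at P7. Against the limit of 3 reads per group, the P7 controls were at least 7.98-fold higher than the P1 controls and the P14 controls at least 7.48-fold lower than the P7 controls. In Casp2-depleted nuclei P14 was at least 4.33-fold lower than P7 and at least 9.20-fold lower than P1. As a share of the reads on Actc1 and Acta1, Acta1 took at most 8.49% in any library. These bounds allow for counting error in the group without a read alone, and no Acta1 comparison was called.

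Acta2 had a read in 13 of 21 libraries, at 50.4, 11.2 and 0 CPM in P1 controls, and at most 83.8 CPM in P7 Casp2-depleted replicate 1. Its level showed no common order of days. The summed level of the 9 smooth muscle and pericyte markers, Acta2 among them, was 308 to 408 CPM at P1, 223 to 320 at P7 and 79.6 to 382 at P14 in controls. It was 367 to 462, 258 to 499 and 220 to 325 CPM in Casp2-depleted nuclei. Of these 9 markers, 7 to 9 had reads in each group. Tagln, a smooth muscle marker, was at 0 at P1 and P14 in both genotypes and had 6 reads at P7 in controls and 26 in Casp2-depleted nuclei, each in 1 library. Myh11, Lmod1, Notch3, Abcc9 and Acta2 had reads in every group, while Rgs5, Cnn1 and Pdgfrb were at 0 in some groups. P7 Casp2-depleted replicate 1, with the highest Acta2 level, also had the highest summed level of these markers (499 CPM). Its 180 Acta2 reads are part of that sum, so the 2 ranks are not independent. P7 Casp2-depleted replicate 2, with 0 Acta2 reads, had a sum of 440 CPM. The share of non-myocyte nuclei in the sorts was not tested.

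Actn2 (chr13:12281303-12356693, minus strand), the sarcomeric alpha-actinin, had the levels of a gene that fell with Myl2 and Actc1, but the test did not call it. P1 controls had 9.60, 464 and 417 CPM. P7 controls had 945, 1013, 441 and 324 CPM, and P14 controls had 145, 18.7 and 12.1 CPM. The P7 and P14 controls did not overlap. Casp2-depleted libraries had 958, 161, 125 and 1370.5 CPM at P1. They had 1220.0, 399, 315 and 274 CPM at P7, and 92.8, 32.1 and 125 CPM at P14, all below P1 and P7. The log2 fold change from P7 to P14 was -3.53 in controls (SE 1.31, adjusted p = 0.253) and -2.73 in Casp2-depleted nuclei (SE 1.25, adjusted p = 0.306), and from P1 to P14 it was -2.97 in Casp2-depleted nuclei (SE 1.27, adjusted p = 0.257). These calls depended on how the spread of Actn2 was estimated. Without robust estimation of the prior spread, the same differences had adjusted p values of 4.67e-05, 0.00158 and 0.000638, and DESeq2 gave 0.00902, 0.0488 and 0.0304. Without P14 control replicate 1 the P14 against P7 value in controls was -5.46 (adjusted p = 0.0111). Without P1 control replicate 2, where Actn2 had 9.60 CPM against 464 and 417 in the other P1 controls, it was -3.44 (adjusted p = 1.25e-05), the value in Casp2-depleted nuclei was -2.50 (0.00145), and the P14 against P1 value in controls was -2.84 (0.00417). With the no-gene share fitted as a covariate, the P14 against P7 value in Casp2-depleted nuclei was 0.10.

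Actn1 (chr12:80212233-80307547, minus strand), the non-muscle alpha-actinin, had 57.6, 65.3 and 128 CPM in P1 controls. It had 150.1, 106, 88.1 and 25.4 CPM in P7 controls and 39.5, 18.7 and 48.4 CPM in P14 controls. It was the only member whose P14 controls all lay below the P1 controls. In Casp2-depleted nuclei it had 176, 67.8, 129 and 174 CPM at P1, then 120.1, 19.8, 39.1 and 37.1 CPM at P7. At P14, replicates 2 and 3 had 2.81 and 0.628 CPM and replicate 4 had 84.3 CPM. The log2 fold change from P1 to P14 in Casp2-depleted nuclei was -2.22 (SE 1.01, adjusted p = 0.247), and without P14 Casp2-depleted replicate 4 it was -6.14 (adjusted p = 0.00886). This 1 library, where 129 reads fell on Actn1 against 4 and 1 in the other P14 replicates, decided the value. As a share of the reads on both alpha-actinins, Actn1 had a median of 23.5% at P1, 11.6% at P7 and 50% at P14 in controls. Single control libraries ran from 12.3 to 85.7% at P1, from 7.28 to 16.6% at P7 and from 21.4 to 80% at P14. The P14 median was 1 library with 25 of 50 reads on Actn1. In Casp2-depleted nuclei the medians were 22.6, 9.98 and 2.94%, with single P14 libraries between 1.92 and 40.3%.

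**Figure D2:**
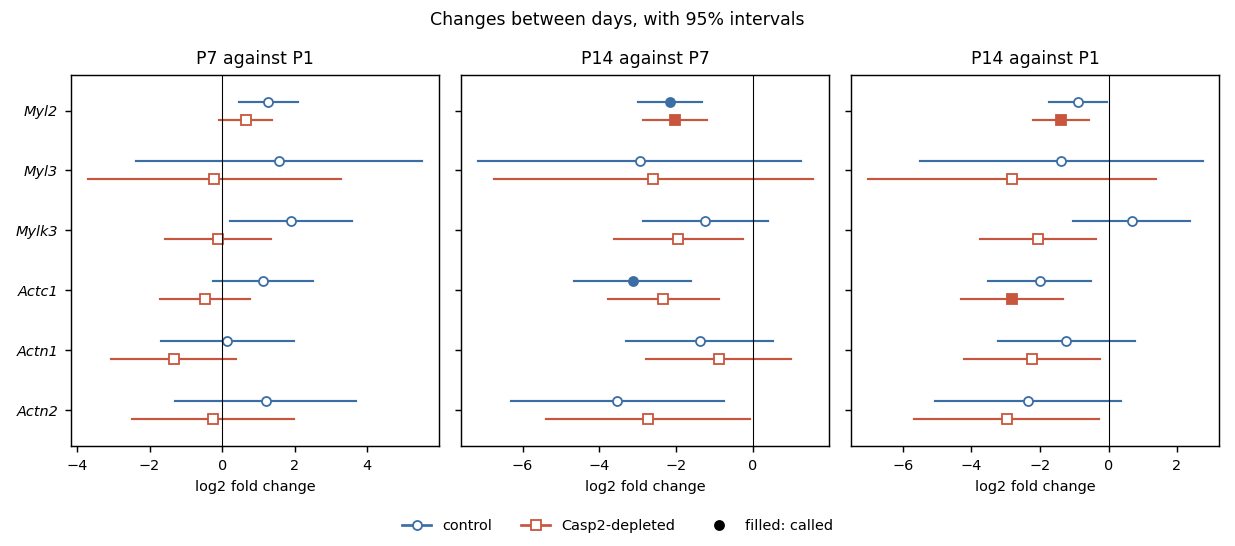
Log2 fold change between days for Myl2, Myl3, Mylk3, Actc1, Actn1 and Actn2, with 95% intervals (lines). Circles are controls and squares Casp2-depleted nuclei, and filled symbols passed the test. From P7 to P14 all 12 values shown were below 0, and Myl2 in both genotypes and Actc1 in controls were called. Of the genes not shown, Acta2 in controls (0.16) and Myl4 and Myl7 in Casp2-depleted nuclei (0.54 and 2.29) were above 0.

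Counted over the 10 genes, the changes lay at P14. From P7 to P14, 2 were called in controls (Myl2 and Actc1) and 1 in Casp2-depleted nuclei (Myl2), against 1.88% and 2.83% of all genes. From P1 to P14, none was called in controls, where 0.319% of all genes were called, and 2 (Myl2 and Actc1) in Casp2-depleted nuclei, where it was 1.94%. Every called member was lower at the later day. From P1 to P7, edgeR called none in either genotype, against 0.00982% of all genes in controls and 0.0196% in Casp2-depleted nuclei, and DESeq2 and limma-voom called none either. At an unadjusted p below 0.05 there were 2 members from P1 to P7 in controls (Myl2 and Mylk3; 6.67% of all genes), none in Casp2-depleted nuclei (7.40%), and 3 from P1 to P14 in controls (11.5%). DESeq2 and limma-voom called none of the 10 from P1 to P14 in controls.

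Whether the libraries of 2 days overlap can be read against all genes in the same way. Between P7 and P14, 5 members did not overlap in controls (Myl2, Myl3, Myl4, Actc1 and Actn2) and 4 in Casp2-depleted nuclei (Myl2, Myl3, Actc1 and Actn2), all lower at P14. Among all genes the groups did not overlap for 15.4% and 13.2%. From P1 to P7 there were 2 members in controls (9.76% of all genes) and none in Casp2-depleted nuclei (1.95%). From P1 to P14 there was 1 in controls (7.93%) and 3 in Casp2-depleted nuclei (Myl2, Mylk3 and Actn2; 6.79%). The median log2 fold change of the 10 members from P7 to P14 was -3.04 in controls and -1.99 in Casp2-depleted nuclei, beside -0.75 and -0.61 over all genes tested. For members without a read in a group, the fitted fold changes in these medians depend on the prior count. With such members at their bound the medians were -2.53 and -1.99.

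Casp2-depleted and control nuclei were next compared at each day, which asks whether depletion of Casp2 goes with another level of these genes. None of the 10 was called by edgeR at P1, P7 or P14, or in the mean of the 3 days. Of all genes, 0% were called at P1, 0% at P7, 0.167% at P14 and 0.0147% in the mean. No member had groups that did not overlap at any day, against 3.40%, 1.64% and 5.15% of all genes at P1, P7 and P14. At an unadjusted p below 0.05 there was no member at P1 or P7, and there were 2 at P14 and 2 in the mean, in both cases Myl4 and Myl7. The shares of all genes at this p were 7.34%, 4.22%, 12.8% and 8.40%. DESeq2 called Myl4 at P14 (adjusted p = 0.0432), and limma-voom called no member.

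The intervals show how large a difference these libraries leave possible. For Myl2, the log2 difference of Casp2-depleted from control nuclei was 0.43 at P1 (95% interval -0.36 to 1.21), -0.20 at P7 (-0.92 to 0.52) and -0.07 at P14 (-0.90 to 0.76). In the mean of the 3 days it was 0.05 (-0.40 to 0.50). The intervals were wider for the other genes. For Actc1 they ran from -0.04 to 2.75 at P1, from -1.49 to 0.99 at P7 and from -0.90 to 2.01 at P14. For Actn2 they ran from -1.34 to 3.62, from -2.53 to 1.93 and from -2.10 to 3.10. Mylk3 was 1.64 lower at P14 on the log2 scale (interval -3.38 to 0.10), and without P14 control replicate 1, which had 773 CPM, the value was 0.82. At P14, Myl4 had 63 reads and Myl7 62 in Casp2-depleted nuclei and neither had any in controls. Against the limit of 3 reads per group, their summed levels were at least 18.8-fold and 18.5-fold higher. Such bounds allow for counting error in the controls alone, and leave out the spread between libraries. Neither gene was called by edgeR (adjusted p = 0.379 and 0.388). The Myl7 reads were all in 1 library and the Myl4 reads in 2 of 3.

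**Figure D3:**
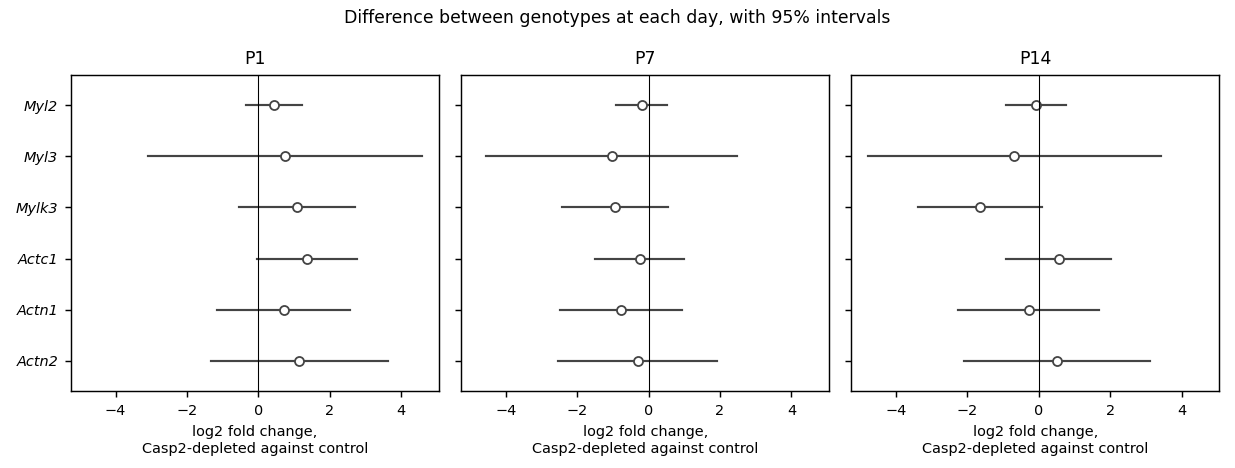
Log2 fold change of Casp2-depleted against control nuclei at P1, P7 and P14, with 95% intervals (lines). The genes shown are Myl2, Myl3, Mylk3, Actc1, Actn1 and Actn2. Every interval shown includes 0, and those of Myl2 are the narrowest. The intervals of Myl4 and Myl7 at P14, not shown, lay above 0, with no read of either gene in the controls.

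The change between days was also compared between genotypes, by the interaction of genotype and day. No member was called by edgeR from P1 to P7, P7 to P14 or P1 to P14, where 0%, 0.0245% and 0.0638% of all genes were called. DESeq2 and limma-voom called none either. At an unadjusted p below 0.05 there was no member from P1 to P7, Myl4 from P7 to P14 and Mylk3 from P1 to P14, against 6.83%, 9.76% and 11.7% of all genes. For Mylk3 the change from P1 to P14 was 2.73 lower on the log2 scale in Casp2-depleted than in control nuclei (a log2 difference of -2.73, SE 1.18, adjusted p = 0.336). This value rested on P14 control replicate 1: without it the difference was -0.26 (adjusted p = 1.00), without replicate 2 it was -3.09 and called (adjusted p = 0.0456), and without replicate 4 it was -3.19 (adjusted p = 0.217). For Myl2 the P7 to P14 changes differed by 0.13 between genotypes (95% interval -0.98 to 1.23).

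Genes of the same structures were counted from lists written by name. The lists are other light chains and the enzymes of light chain phosphorylation (10 genes tested), other actins and thin filament genes (19), other alpha-actinins and Z-disc partners (19), the SRF, MRTF and MEF2 regulators (14), and myosin heavy chains and thick filament genes (10). Between P7 and P14 in controls, 3, 2, 4, 4 and 3 of these genes, in this order, were called lower and none higher. Of all genes, 1.88% were called in either direction, and 35.2% had a value above 0. In Casp2-depleted nuclei 4, 7, 5, 5 and 4 of the list genes were called lower and none higher, where 2.83% of all genes were called and 37.3% were above 0. The median log2 fold changes of the lists ran from -1.67 to -2.59 in controls and from -2.06 to -2.73 in Casp2-depleted nuclei, against the medians of -0.75 and -0.61 over all genes. The P7 and P14 libraries also differed in the share of reads on no gene, so the falls below cannot be told apart from it.

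Light chain phosphatase subunits were among them. Ppp1r12a, the myosin-targeting subunit of the phosphatase, fell by 2.05 in controls (SE 0.44, adjusted p = 0.000814) and fell by 3.08 in Casp2-depleted nuclei (SE 0.47, adjusted p = 2.27e-08). Its muscle paralog Ppp1r12b fell in both genotypes (log2 fold changes of -2.07 in controls and -2.02 in Casp2-depleted nuclei). On the thin filament, troponin T (Tnnt2) fell by 2.50 in controls (SE 0.32, adjusted p = 3.79e-11) and fell by 2.64 in Casp2-depleted nuclei (SE 0.32, adjusted p = 7.26e-13), and tropomodulin 1 (Tmod1), which caps the pointed end of actin, fell by 3.13 in controls. Troponin C (Tnnc1) fell by 2.45 in Casp2-depleted nuclei. In the Z-disc list, Ldb3 fell in both (-2.83 and -2.35), as did the actin-binding Nexn (-2.14 and -3.43) and the non-muscle alpha-actinin gene Actn4 (-6.11 and -3.68), with 8 reads left over the 3 P14 controls. Pdlim5 fell by 3.99 in controls.

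Among regulators, Mef2a (-3.20 in controls and -3.70 in Casp2-depleted nuclei), Mef2d (-2.43 and -2.45) and Gata4 (-2.29 and -2.25) fell in both genotypes. Tead1 fell by 2.07 in Casp2-depleted nuclei (adjusted p = 0.0381), and Irx4 had no read at P14. On the thick filament, Myh7b (-3.21 and -3.78) and Myom1 (-2.46 and -3.33) fell in both. Between genotypes, the Z-disc gene Myoz2 was the only gene of the 5 lists called at P14, with no read in the 3 Casp2-depleted libraries and 187 reads, all in 1 of 3 libraries, in the controls. From P1 to P14 in Casp2-depleted nuclei 2, 5, 6, 4 and 2 genes of the lists were called lower, against 0, 1, 1, 0 and 0 in controls, where 1.94% and 0.319% of all genes were called. From P1 to P7 none was called in either genotype, with 4, 3, 5, 1 and 5 genes at an unadjusted p below 0.05 in controls and 1, 2, 1, 0 and 1 in Casp2-depleted nuclei, against 6.67% and 7.40% of all genes.

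The levels of the sarcomeric members moved together across libraries, and with the share of reads on no gene. Over the 21 libraries, Pearson's r of log2 CPM was 0.93 for Actc1 and Actn2, 0.88 for Myl2 and Actc1, 0.85 for Myl2 and Actn2 and 0.80 for Myl2 and Mylk3. Actn1 was less like the others, with r of 0.37 to Myl2 and 0.52 to Actn2, and Acta2 had r of 0.01 to Myl2. Against the share of reads on no gene, r was -0.88 for Myl2, -0.87 for Actc1, -0.86 for Actn2, -0.835 for Mylk3, -0.78 for Myl3 and -0.51 for Actn1. These points share the library, its depth and its day, so they are given as a description. The part of the share of reads on no gene in the day differences was not tested beyond the fit with it as a term. The P7 and P14 libraries did not overlap in this share in either genotype, so it and the step from P7 to P14 cannot be told apart.

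**Figure D4:**
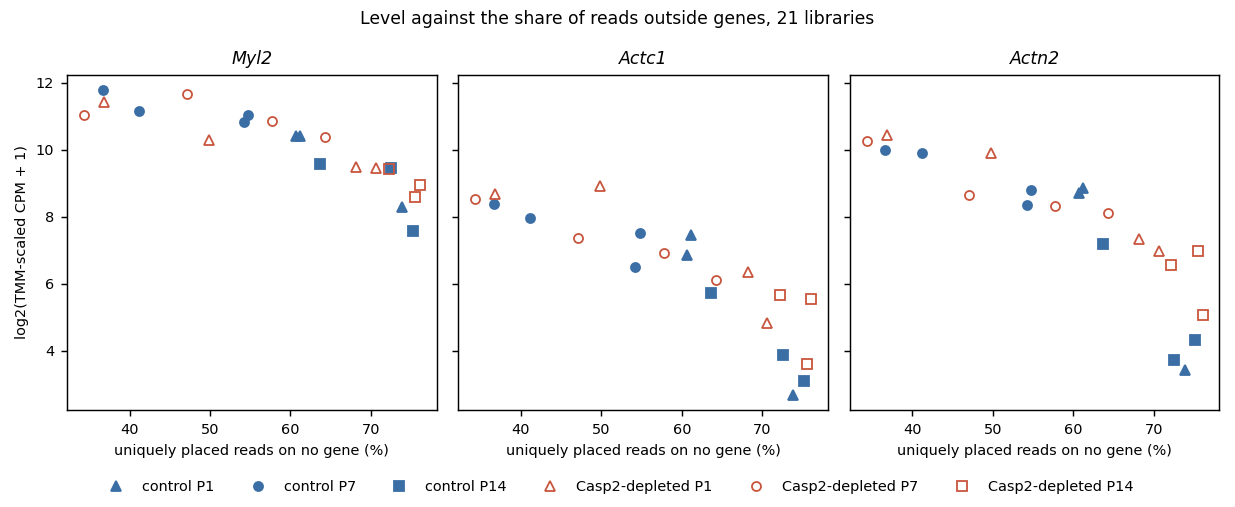
Level of Myl2, Actc1 and Actn2 as log2(TMM-scaled CPM + 1) against the percentage of uniquely placed reads on no gene, in 21 libraries. Filled symbols are controls and open symbols Casp2-depleted libraries, with triangles for P1, circles for P7 and squares for P14. Over the 21 libraries the levels of all 3 genes are lower where the share is higher (r -0.88, -0.87 and -0.86). No r was computed within a single day.

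The genes most like each member were found among the 3904 genes with at least 50 CPM on average. For Myl2 they were Myh6 (r 0.96), the adult cardiac myosin heavy chain, Sltm (0.95) and Vegfa (0.95). For Actc1 they were Srsf10 (0.93), Actn2 (0.93) and Dnaaf9 (0.92), and for Actn2 they were Thrap3 (0.95), Esrrg (0.95) and Asb2 (0.94). Those of Mylk3 were Esrrg (0.89), Agrn (0.89) and Slc12a4 (0.88), and those of Actn1 included Popdc1 (0.83) and Khdrbs1 (0.79). All were measured over the same 21 libraries.

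Set against CM markers instead of all reads, the picture differed between members. Myl2 took 18.4 to 39.2 reads per 1000 reads on the 8 ventricular CM markers in control libraries and 25.5 to 49.0 in Casp2-depleted libraries. Its medians at P1, P7 and P14 were 26.4, 24.6 and 21.03 in controls and 29.5, 30.6 and 33.3 in Casp2-depleted nuclei. On this scale Myl2 did not show the step from P7 to P14, and its days overlapped in both genotypes. The markers include Tnnt2, called lower from P7 to P14 in both genotypes, and Myh6, the gene most like Myl2 (r 0.96). A fall that Myl2 shares with the markers does not show in this ratio, so a flat ratio does not mean a constant level. Actc1 had medians of 2.23, 2.18 and 0.828 in controls and of 3.72, 1.83 and 2.31 in Casp2-depleted nuclei. Actn2 had medians of 8.09, 6.06 and 2.07 in controls and of 10.3, 5.55 and 4.30 in Casp2-depleted nuclei, so that all P14 controls (0.684 to 3.72) lay below all P7 controls (4.19 to 15.2). These ratios were added after the data were seen, rest on the same markers as the check of cell type, and were not tested.

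**Figure D5:**
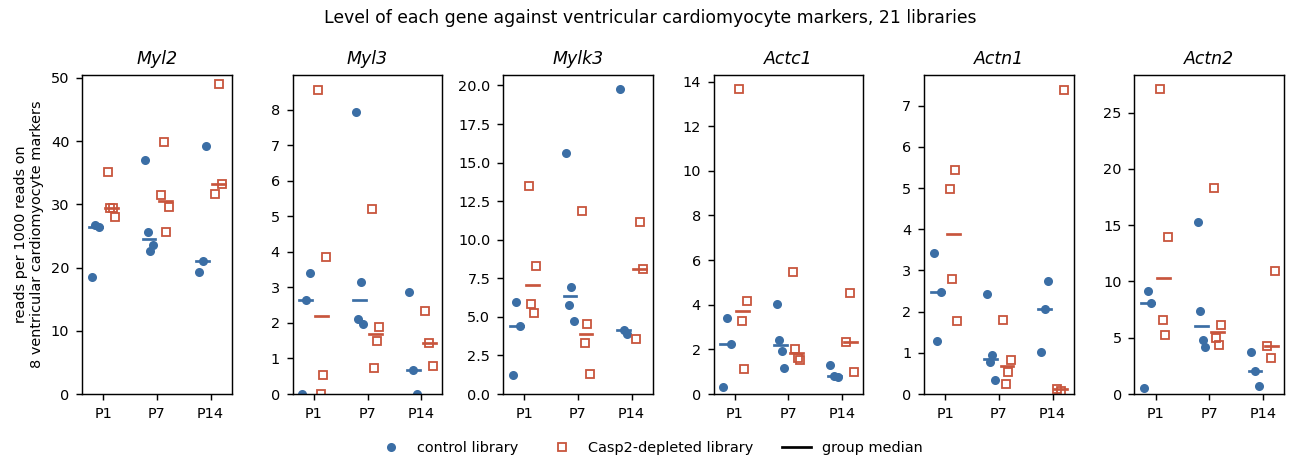
Reads of 6 genes per 1000 reads on 8 ventricular CM markers in each of the 21 libraries, by postnatal day (filled circles, control; open squares, Casp2-depleted; bars, group medians; each panel has its own scale from 0). Myl2 stays between 18.4 and 49.0 at all days, while Actn2 is lower at P14 than at P7 in controls.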

How the data were processed

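PCM1-sorted CM nuclei from snap-frozen mouse ventricles were profiled by 3′ mRNA sequencing (QuantSeq 3′ FWD, single-end reads of 100 bases). Per the study's methods, the authors trimmed reads with cutadapt 4.0, aligned them with STAR 2.6.1e to GRCm39 and counted them with HTSeq 2.0.3 over whole genes, introns included. The deposited values are raw counts per Ensembl gene. Strand setting and molecular identifiers are not given in the sources used here. Reads without identifiers are not independent molecules, so the Wilson intervals may be too narrow and the limits for genes without a read too low. The intervals of fold changes rest on the spread between pools.

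Groups came from the labels. As in the study, 3 low-quality libraries were left out, leaving 21. Genes with at least 10 reads and a read in at least 3 libraries (20368) entered edgeR 4.0.16 (R 4.3.3), with TMM scaling, 6 group means, a robust quasi-likelihood test and Benjamini-Hochberg adjustment over all of them. A call needed an adjusted p below 0.05 and a log2 fold change beyond 1. The study used limma with the same thresholds. edgeR was chosen because the deposited values are counts, with DESeq2 1.42.0 and limma 3.58.1 (voom) as alternatives. Log2 CPM used a prior count of 2. Ratios to markers and the fits without robust estimation or with the share of reads on no gene were added after seeing the data. The scripts were tested on simulated data.

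Nothing says that pools were separate litters or days, so p-values measure the spread between pools. The 36 replicate pairs differed by more than sampling noise (chi-square per degree of freedom 19.2 to 180.4). Sequences came from RefSeq (promoter windows matched to GRCm39). The named genes were the 10 members, the called genes of the lists (at most 5 per list and comparison), and the 3 genes most like each member. A few genes that this rule names are not reported here. The members and lists were chosen with earlier results of these data known.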

Additional observations from a re-analysis of the deposited data

Results flagged for a closer look

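In 6 of 30 sets of 4 libraries, 1 per gene and group, the highest library lay far from the other 3 by Dixon's test. Chance gives about 1 in 20 such sets, but this rate does not apply to the 3 sets of Myl7, where 1 library with any read and 0 in the others always meets the criterion. In P7 Casp2-depleted replicate 1, Actn2 had 1220.0 CPM against 399 in the next library, Myl3 had 347 against 108, and Myl7 had 10.2 against 0. Myl4 had 74.7 CPM in P1 Casp2-depleted replicate 1 against 8.97 in the next library. Myl7 had 20.9 CPM in P1 Casp2-depleted replicate 4 and 3.59 CPM in P7 control replicate 2, with 0 in the other 3 libraries of each group. P7 Casp2-depleted replicate 1 also had the lowest share of reads on no gene of all 21 libraries (34.3%). The part of this share in these values was not tested.

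Some of the genes were higher in a library left out by the study than in every control of the same day that was kept, in CPM without TMM scaling. This held for 9 of the 10 genes in P1 control replicate 1, for Myl2 and Myl3 in P14 control replicate 3, and for Myl3 in P14 Casp2-depleted replicate 1, where Myl4 also had 2 reads against 0 in the controls. In P1 control replicate 1, Myl2 had 2486 CPM against at most 1323, Myl3 had 1106 against 171, and Mylk3 had 780.2 against 279.8. Actc1 had 1648 CPM there against 159, Actn2 had 1255 against 428, Actn1 had 223 against 125, and Acta2 had 101 against 67.5. The atrial light chains were also higher in it, Myl4 with 50.4 CPM against 9.23 and Myl7 with 71.3 against 0. This library had 9.21% of its reads on no gene. P14 control replicate 3 had 4167 CPM of Myl2 against at most 1027 and 482.5 CPM of Myl3 against 125, with 2049 genes detected and 16.1% of reads on no gene. P14 Casp2-depleted replicate 1 had 331 CPM of Myl3, against the same 125 in controls.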

How the results depend on the processing

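Of 4222 values of single members under an alternative, 3939 kept their direction and side of the threshold, 198 turned their sign while called in neither fit, 32 became called, 53 were no longer called and 0 called values turned their sign. Of the 130 values in the edgeR fit of the report, few were called, all of them of Myl2 or Actc1. Most values that were kept were thus uncalled in both fits, so their number says little about the stability of the calls. From P7 to P14 in controls, where 2 members were called, the number was 1 with filterByExpr and with limma-voom (TMM), 0 with all 24 libraries, with limma-voom (quantile) and with the no-gene share as a covariate, and 4 without robust estimation. In Casp2-depleted nuclei, where 1 was called, it was 2 with only the groups compared, with DESeq2 and without robust estimation, and 0 with all 24 libraries, both limma-voom fits and the covariate. From P1 to P14 in Casp2-depleted nuclei, where 2 were called, it was 1 with DESeq2 size factors and at equal depth, and 0 with filterByExpr, all 24 libraries, both limma-voom fits and the covariate. Between genotypes at P14, where none was called, DESeq2 called 1.

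Leaving out each of the 21 libraries in turn gave 0 to 4 members from P7 to P14 in controls and 1 to 3 in Casp2-depleted nuclei. It gave 0 to 3 from P1 to P14 in Casp2-depleted nuclei, 0 to 1 in controls, and 0 to 1 in the interaction from P1 to P14. In the other 8 comparisons it gave 0 throughout.

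Over all genes, calls from P7 to P14 in controls numbered 382 in the edgeR fit of the report, 993 with DESeq2, 1150 with limma-voom (TMM), 703 with limma-voom (quantile), 35 with all 24 libraries and 38 with the covariate. In Casp2-depleted nuclei they numbered 577, 1329, 830, 814, 124 and 147. From P1 to P14 they numbered 65, 538, 205, 126, 14 and 66 in controls and 396, 1212, 429, 610, 61 and 95 in Casp2-depleted nuclei. At P14 between genotypes they numbered 34, and 688 with DESeq2. Quantile scaling moved the median over all genes from P7 to P14, on the log2 scale, by 0.63 in controls and 0.49 in Casp2-depleted nuclei, and DESeq2 size factors by 0.24 and 0.17. Apart from the fits with fewer genes or other libraries, the cause of these differences was not tested.

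The correlation of deviations between same-numbered libraries was -0.22 to 0.23 (median 0.009), against -0.24 to 0.32 (median -0.004) between different numbers. For the 9 pairs of the same number and day it was -0.06 to 0.21 (median 0.051). Of the 21 libraries, 7 correlated best with their own number. With ranges that overlap and few pairs within a day, these values do not decide whether the replicate numbers pair the libraries. With the replicate block, 3 members were called from P7 to P14 in controls, 1 in Casp2-depleted nuclei and 0 from P1 to P14 in Casp2-depleted nuclei. Genes with few reads, above all Myl4, Myl7, Acta1 and Acta2, are limited by depth.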
